A study of Mus musculus with 15 samples.

Results

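Notch signaling passes between neighboring cells. A Delta or Jagged ligand on one cell binds a Notch receptor on the next, proteases of the ADAM and gamma-secretase families release the receptor's intracellular domain, and that domain joins RBPJ and Mastermind-like proteins in the nucleus to switch on targets such as Hes1, a repressor of transcription. In lymphoid organs NOTCH1 is known for T-cell fate and NOTCH2 for marginal zone B cells, and in the sympathetic lineage the pathway is known for holding back neuronal differentiation. In vessels NOTCH4, DLL4 and JAG1 are known from endothelium and NOTCH3 from pericytes and smooth muscle.

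The genes described here are the 4 Notch receptors (Notch1, Notch2, Notch3 and Notch4), 5 canonical ligands (Dll1, Dll3, Dll4, Jag1 and Jag2) and the target Hes1. These 10 genes were taken by symbol from the 23329 genes in the files, and all 10 were among the 14880 genes tested, which had over 1 CPM (reads of a gene scaled to the library's total) in at least 3 tumors. The gene list was given by name, without a cut on a measured value, but with earlier results of these data known.

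The study asked which transcripts differ with loss of Casp2, which encodes the protease caspase-2, in lymphomas and neuroblastomas of mice. It sequenced poly(A) RNA from 15 tumors, 1 per mouse. The lymphomas came from cervical lymph nodes of C57BL/6 mice, 4 of them EμMyc with Casp2 intact (onset at 13 to 19 weeks) and 3 of them EμMyc/Casp2-/- (8 to 12 weeks). The neuroblastomas were paraspinal thoracic tumors of Sv129/C57BL6 mice, 4 of them Th-MYCN with Casp2 intact (10 to 21 weeks) and 4 of them Th-MYCN/Casp2-/- (15 to 24 weeks). All lymphomas carried c-Myc under the immunoglobulin heavy chain enhancer, which acts in B-lineage cells, and all neuroblastomas carried human MYCN under the tyrosine hydroxylase promoter, which acts in neural crest derivatives. The Casp2-/- allele is a germline knockout, so host cells in the tumors carried it too. The neuroblastomas had been picked for absent or reduced blood vessels. Onset was earlier in every EμMyc/Casp2-/- mouse than in any EμMyc mouse, so genotype cannot be told apart from age in lymphomas, nor tumor type from strain and tissue.

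Libraries held 4940464 to 17638029 reads on genes in the strand column used, with the lowest total in EuMycC2ko215. The floor, set at 3 reads, lay between 0.170 and 0.607 CPM and accounts for counting error alone. Summed CPM of 8 B-cell markers was 2112 to 4979 in the lymphomas and 11.4 to 27.1 in the neuroblastomas, and that of 8 sympathetic neuroblast markers was 1.73 to 20.5 and 2898 to 4272. Casp2 itself kept reads in Casp2-/- tumors. It measured 125.3 to 202.8 CPM in EμMyc and 51.9 to 76.1 in EμMyc/Casp2-/- tumors (log2 fold change -1.36 ± 0.247 SE, FDR 0.0536 in the quasi-likelihood test and 0.000400 in the likelihood ratio test). It measured 76.0 to 125.5 CPM in Th-MYCN and 39.6 to 80.2 in Th-MYCN/Casp2-/- tumors, where the ranges overlap (log2 fold change -0.79 ± 0.228 SE, FDR 0.327 and 0.102). EuMycC2ko215 stood apart by its T-cell markers, with a summed CPM over 10 genes of 1625 against 103.4 to 321.4 in the other lymphomas, and the differences between lymphoma genotypes described for receptors, Hes1 and T-cell markers are given without it as well.

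Levels below are CPM scaled by the trimmed mean of M-values (TMM). Levels of different genes are compared only as CPM per kb of exon, with all annotated exons of a gene joined. That length, 14.232 kb for Notch1, can exceed the length of a single transcript, so shares and orders of levels depend on the annotation. A gene was called as differentially expressed (a DEG) at a false discovery rate (FDR, Benjamini-Hochberg over all genes tested) under 0.05 with an absolute log2 fold change over 1, by edgeR's quasi-likelihood test (QLF). The likelihood ratio test (LRT), which called more genes here, is given beside it. These are whole tumors, so fewer cells of a type and less RNA per cell cannot be told apart in any difference below.

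The tumor types differed in receptors and ligands. Summed receptor RNA and Hes1 RNA were higher in lymphomas, and summed ligand RNA was higher in neuroblastomas. Notch2 made 65.7% of the receptor sum in lymphomas on average, and Jag2 made 73.0% of the ligand sum in neuroblastomas. Notch3 and Notch4 had log2 fold changes below 0 in EμMyc against Th-MYCN tumors (-0.94 and -0.66), neither called by QLF. The 4 receptors summed to 16.4 ± 3.53 CPM per kb (SD, n = 7) in lymphomas and 5.13 ± 1.91 (n = 8) in neuroblastomas. The 5 ligands summed to 3.99 ± 0.603 CPM per kb in lymphomas and 26.8 ± 5.44 in neuroblastomas. Ranges of the receptor sum were 11.7 to 22.2 and 3.24 to 8.71, and those of the ligand sum 2.92 to 4.77 and 20.5 to 36.0, so neither overlapped.

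**Figure D1:**
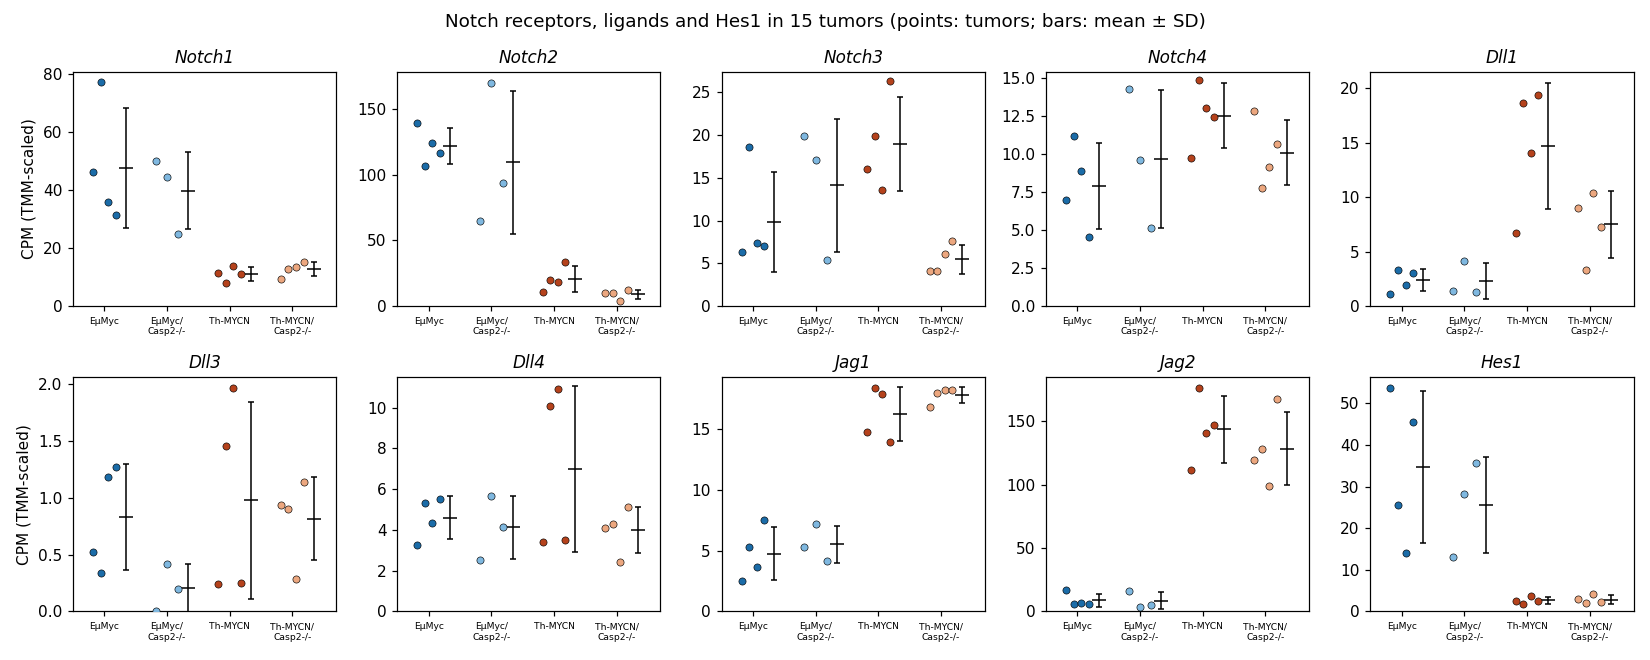
TMM-scaled CPM (vertical axis, linear from 0, a scale per panel) of each gene in the 15 tumors of 4 groups (horizontal axis). Points are tumors and bars are mean ± SD. Notch1, Notch2 and Hes1 sit higher in every lymphoma than in any neuroblastoma, Jag1 and Jag2 lower, and Notch3 is lower in every Th-MYCN/Casp2-/- tumor than in any Th-MYCN tumor.

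Of the 10 genes, 3 were called higher and 3 lower in EμMyc than in Th-MYCN tumors by QLF, and LRT gave equal counts. Over all genes the background is high, with 46.1% called by QLF (18.3% higher and 27.8% lower) and 47.5% by LRT, so a share of 6 in 10 is close to what this comparison gives at large. In EμMyc/Casp2-/- against Th-MYCN/Casp2-/- tumors QLF called 4 higher and 3 lower, against 46.4% of all genes (19.7% higher and 26.6% lower; LRT also 4 and 3, against 48%). These comparisons share no tumor. Their groups did not overlap for 6 and 5 of the 10 genes, against 59.4% and 54.8% of all genes.

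Among the receptors, Notch2 was the main one in lymphomas. It measured 139.3, 106.2, 124.0 and 116.7 CPM in the EμMyc tumors EuMyc614, EuMyc743b, EuMyc829 and EuMyc835, and 65.0, 169.7 and 93.3 in the EμMyc/Casp2-/- tumors EuMycC2ko215, EuMycC2ko239 and EuMycC2ko245. It measured 10.6, 19.6, 18.5 and 33.8 CPM in the Th-MYCN tumors MYCN175, MYCN235, MYCN332 and MYCN391, and 9.87, 9.77, 4.34 and 12.3 in the Th-MYCN/Casp2-/- tumors MYCNC2ko118, MYCNC2ko144, MYCNC2ko176 and MYCNC2ko180. Values of later genes follow this order of tumors. The lowest lymphoma was above the highest neuroblastoma. Its log2 fold change was 2.56 ± 0.355 SE (QLF FDR 2.92e-05) between EμMyc and Th-MYCN tumors and 3.59 ± 0.389 (FDR 2.52e-06) between the Casp2-/- tumor types.

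Notch1 was also higher in lymphomas. It measured 46.2, 77.3, 35.9 and 31.3 CPM in EμMyc and 50.0, 44.5 and 24.8 in EμMyc/Casp2-/- tumors. It measured 11.5, 7.84, 13.7 and 11.2 CPM in Th-MYCN and 9.43, 12.8, 13.5 and 15.3 in Th-MYCN/Casp2-/- tumors. No lymphoma was as low as a neuroblastoma, and EuMyc743b was highest of all. The log2 fold changes were 2.10 ± 0.306 (QLF FDR 3.88e-05) and 1.64 ± 0.332 (FDR 0.000595).

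Notch4 was called in neither comparison of tumor types. It measured 7.00, 11.2, 8.90 and 4.57 CPM in EμMyc and 14.3, 9.60 and 5.15 in EμMyc/Casp2-/- tumors. It measured 9.71, 14.9, 13.0 and 12.4 CPM in Th-MYCN and 12.8, 7.77, 9.16 and 10.6 in Th-MYCN/Casp2-/- tumors, and all 4 groups overlapped. Its log2 fold change was -0.66 (95% interval -1.40 to 0.0863) and -0.07 (-0.879 to 0.737). Notch3 is described with the genotypes.

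The receptors were also compared as shares of their summed level. Notch2 made 65.7% ± 12.5 (SD, n = 7) of it in lymphomas and 25.3% ± 6.89 (n = 8) in neuroblastomas. The share of Notch2 was 43.8% in EuMycC2ko215 and 51.9% in EuMyc743b, the lowest of the lymphomas, and these tumors had the highest Notch1 shares, 25.5% and 28.6%. In neuroblastomas no receptor held a majority in any tumor. Notch3 made 35.5% ± 5.14 (n = 4) in Th-MYCN and 18.4% ± 4.46 (n = 4) in Th-MYCN/Casp2-/- tumors, and Notch1 12.4% ± 4.35 and 24.7% ± 4.95. Notch4 made 24.1% ± 4.58 and 34.3% ± 6.52, and Notch2 27.9% ± 6.66 and 22.6% ± 6.88. The receptor sum itself was 6.59 ± 1.58 CPM per kb (4.98 to 8.71) in Th-MYCN and 3.67 ± 0.574 (3.24 to 4.48) in Th-MYCN/Casp2-/- tumors. A higher share of Notch1 or Notch4 is therefore not a higher level.

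**Figure D2:**
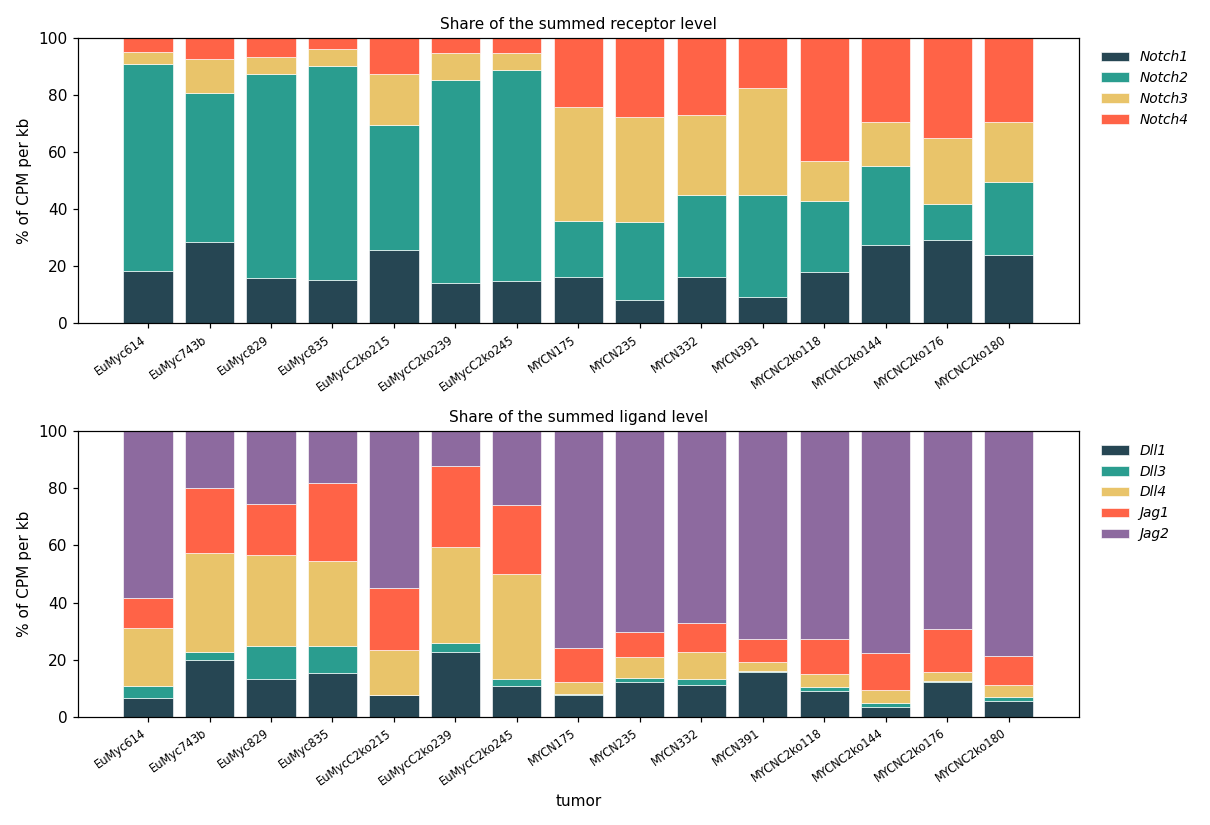
Share (vertical axis, % of summed CPM per kb) of each receptor (top) and each ligand (bottom) in the 15 tumors (horizontal axis). Notch2 fills 43.8% to 74.9% of the receptor level in lymphomas, and Jag2 fills 67.0% to 78.5% of the ligand level in neuroblastomas.

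To show the start regions of the receptors that move apart in this way, the 200 bases from -250 to -51 before each RefSeq start (GRCm38.p6) are given on the gene's strand. The windows are Notch1 at chr2:26503873-26504072 (minus strand), Notch2 at chr3:98013288-98013487 (plus), Notch3 at chr17:32166941-32167140 (minus) and Notch4 at chr17:34564045-34564244 (plus). None holds a base of an annotated exon, and that of Notch1 lies inside the span of a longer annotated Notch1 gene. Capitals mark the GC box GGGCGG or its reverse complement CCGCCC.
Notch1: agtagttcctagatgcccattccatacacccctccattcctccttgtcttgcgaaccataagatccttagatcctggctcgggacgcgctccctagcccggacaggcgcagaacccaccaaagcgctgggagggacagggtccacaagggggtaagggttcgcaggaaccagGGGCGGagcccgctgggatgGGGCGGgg
Notch2: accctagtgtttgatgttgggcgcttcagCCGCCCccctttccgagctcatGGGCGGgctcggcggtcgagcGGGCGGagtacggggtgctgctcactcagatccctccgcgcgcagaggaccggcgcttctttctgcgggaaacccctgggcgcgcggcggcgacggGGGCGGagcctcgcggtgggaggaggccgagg
Notch3: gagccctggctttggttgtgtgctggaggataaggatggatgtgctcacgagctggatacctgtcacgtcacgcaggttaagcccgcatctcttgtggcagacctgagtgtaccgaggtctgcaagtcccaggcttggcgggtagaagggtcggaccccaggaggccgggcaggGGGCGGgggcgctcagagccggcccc
Notch4: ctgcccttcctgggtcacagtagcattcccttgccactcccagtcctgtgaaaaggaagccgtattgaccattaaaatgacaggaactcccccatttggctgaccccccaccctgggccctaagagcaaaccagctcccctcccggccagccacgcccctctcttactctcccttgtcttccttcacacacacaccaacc
The GC box occurred 2 times in Notch1, 4 in Notch2, 1 in Notch3 and 0 in Notch4, and 24.6% of 32851 RefSeq promoters hold it in the same window on either strand. CpG dinucleotides numbered 11, 26, 11 and 3, against a median of 4 over all promoters. The RBPJ core TGGGAA (17.9% of promoters) and the E-box CACGTG (4.34%), searched on both strands, were in 0 of the windows of the 9 members with an entry. Unlike those of the receptors, the windows of Dll1, Dll3 and Jag2 lie wholly in annotated exons, and those of Jag1 and Dll4 in part. The motif matches are descriptions of letters in a window and were compared with no measured difference.

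Among the ligands, Jag2 had the largest log2 fold change between tumor types. It measured 16.8, 5.56, 6.30 and 6.05 CPM in EμMyc and 16.0, 3.76 and 5.25 in EμMyc/Casp2-/- tumors. It measured 111.6, 176.1, 140.4 and 147.2 CPM in Th-MYCN and 119.4, 128.2, 98.8 and 167.6 in Th-MYCN/Casp2-/- tumors. Every neuroblastoma was far above every lymphoma, and EuMyc614 and EuMycC2ko215 were the high lymphomas. The log2 fold changes were -4.05 ± 0.405 (QLF FDR 1.65e-06, 16.5-fold lower in EμMyc) and -4.01 ± 0.447 (FDR 9.18e-06, 16.1-fold lower in EμMyc/Casp2-/-).

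Jag1 was lower in lymphomas too. It measured 2.54, 5.30, 3.62 and 7.54 CPM in EμMyc and 5.27, 7.18 and 4.14 in EμMyc/Casp2-/- tumors. It measured 14.8, 18.4, 17.9 and 14.0 CPM in Th-MYCN and 16.9, 18.0, 18.2 and 18.3 in Th-MYCN/Casp2-/- tumors. The tumor types did not overlap, and the Th-MYCN/Casp2-/- tumors lay closest together. The log2 fold changes were -1.78 ± 0.315 (QLF FDR 0.000218) and -1.68 ± 0.343 (FDR 0.000892).

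Dll1 measured 1.14, 3.34, 1.97 and 3.08 CPM in EμMyc and 1.37, 4.17 and 1.31 in EμMyc/Casp2-/- tumors. It measured 6.72, 18.7, 14.0 and 19.3 CPM in Th-MYCN and 9.00, 3.34, 10.4 and 7.23 in Th-MYCN/Casp2-/- tumors. EμMyc and Th-MYCN tumors did not overlap, whereas EuMycC2ko239 was above the lowest Th-MYCN/Casp2-/- tumor. The log2 fold change was -2.62 ± 0.501 (QLF FDR 0.000507) between EμMyc and Th-MYCN tumors. It was -1.68 ± 0.552 (FDR 0.0198) between the Casp2-/- tumor types, and lost its call without EuMycC2ko215 (-1.38, FDR 0.0758) or EuMycC2ko245 (-1.40, FDR 0.0793).

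Dll4 was called in neither comparison. It measured 3.24, 5.30, 4.33 and 5.52 CPM in EμMyc and 2.54, 5.68 and 4.14 in EμMyc/Casp2-/- tumors. It measured 3.42, 10.1, 10.9 and 3.52 CPM in Th-MYCN and 4.11, 4.30, 2.41 and 5.12 in Th-MYCN/Casp2-/- tumors, so that MYCN235 and MYCN332 stood above all other tumors. Its exons overlap those of Gm14207, which held 3 to 30 reads in lymphomas and 10 to 97 in neuroblastomas, and reads of the pair cannot be told apart by strand here. Exons of Notch1, Notch2, Notch3 and Dll1 also overlap those of other annotated genes, whose reads are not given here. Dll3, a ligand known for acting inside the cell that makes it, was low everywhere. It held 6, 4, 15 and 12 reads in EμMyc, 0, 5 and 2 in EμMyc/Casp2-/-, 4, 20, 34 and 4 in Th-MYCN and 13, 14, 3 and 14 in Th-MYCN/Casp2-/- tumors. Its log2 fold change was -0.24 (95% interval -1.87 to 1.40) between EμMyc and Th-MYCN tumors and -1.76 (-3.88 to 0.372, QLF FDR 0.130) between the Casp2-/- tumor types, with overlapping groups in both. Dll3 was called in neither comparison, and both intervals reach past 1 in size.

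Hes1, the target, was higher in lymphomas. It measured 53.7, 25.5, 14.1 and 45.6 CPM in EμMyc and 13.1, 28.1 and 35.6 in EμMyc/Casp2-/- tumors. It measured 2.44, 1.89, 3.75 and 2.47 CPM in Th-MYCN and 3.10, 1.99, 4.15 and 2.19 in Th-MYCN/Casp2-/- tumors. All lymphomas were above all neuroblastomas, although they spread over a wider range. The log2 fold changes were 3.71 ± 0.423 (QLF FDR 5.79e-06, 13.1-fold higher) and 3.17 ± 0.458 (FDR 3.87e-05, 9.01-fold higher). Hes1 led the order of levels in EμMyc tumors at 17.0 ± 8.91 CPM per kb, with Notch2 second at 11.3 ± 1.29 in an overlapping range and Notch1 at 3.35 ± 1.46. The other members lay at 1.25 CPM per kb or less. In Th-MYCN tumors Jag2 led at 20.7 ± 3.80 CPM per kb, clear of Dll1 at 3.48 ± 1.38, and the remaining members followed in overlapping ranges down to Dll3 at 0.343. In Th-MYCN/Casp2-/- tumors Jag2 led at 18.5 ± 4.14, Jag1 followed at 3.06 ± 0.115 with no overlap, and Notch3 stood ninth at 0.678 ± 0.211.

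Between genotypes few Notch genes passed a test. In neuroblastomas QLF called 0 of the 10 genes (0.0336% of all genes), LRT called 1 of them lower in Th-MYCN/Casp2-/- tumors, Notch3 (0.813% of all genes in either direction and 0.625% lower), and DESeq2 called the same 1 (0.816% of its genes). An unadjusted QLF p under 0.05 was found for 2 of the 10, Notch3 and Notch2, against 6.77% of all genes. Of the 10 log2 fold changes 7 were below 0, with a median of -0.28, where the median over all genes was -0.00237.

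Notch3 had the largest log2 fold change of the 10 genes between the neuroblastoma genotypes, and the tests disagreed on its call. It held 263, 274, 235 and 425 reads in the Th-MYCN tumors, and 57, 64, 63 and 94 in the Th-MYCN/Casp2-/- tumors. On the CPM scale these were 16.1, 19.9, 13.6 and 26.2 against 4.11, 4.11, 6.07 and 7.64. The highest Th-MYCN/Casp2-/- tumor was below the lowest Th-MYCN tumor. This was 1 of the 10 genes without overlap, against 6.62% of all genes (3.68% in this direction). The log2 fold change was -1.79 ± 0.441 SE, a level 3.46-fold lower, with a 95% interval of -2.73 to -0.850. It did not pass QLF (FDR 0.237) and passed LRT (FDR 0.0314) and DESeq2 (FDR 0.0144). Leaving out each neuroblastoma in turn kept it between -1.97 and -1.59, with QLF FDR from 0.204 to 0.712.

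Summed levels of several marker lists were also lower in the same tumors. The summed CPM of 10 endothelial markers was 127.7, 91.7, 89.5 and 78.0 in Th-MYCN and 49.8, 48.4, 50.3 and 71.7 in Th-MYCN/Casp2-/- tumors. That of 10 pericyte and smooth muscle markers was 225.2, 212.9, 232.5 and 176.7 against 103.1, 114.3, 121.4 and 158.3. Neither sum overlapped between genotypes. In both lists 9 of 10 log2 fold changes were below 0, QLF called 0 and LRT called 2 lower, against 0.625% of all genes. These were Pecam1 (-1.20, LRT FDR 0.000552) and Kdr (-1.46, FDR 0.0308) of endothelium, and Rgs5 (-1.85, FDR 0.0265) and Acta2 (-1.97, FDR 0.0402) of mural cells. No marker of either list was without reads in any group. The sum of the 8 sympathetic neuroblast markers did not overlap between genotypes either, at 3861 to 4272 CPM in Th-MYCN and 2898 to 3678 in Th-MYCN/Casp2-/- tumors, although 5 of the 8 log2 fold changes were above 0. For 8 macrophage markers all 8 log2 fold changes were below 0, with sums that overlapped (563.8 to 840.2 and 336.4 to 782.6), and QLF and LRT called 0 of either list. The remaining lists did not go this way. Log2 fold changes above 0 numbered 6 of 7 for Schwann and neural crest, 9 of 10 for T-cell and 4 of 8 for B-cell markers, all with overlapping sums. The part of any of these cells, and of the choice of tumors by vascularization, in the Notch3 difference was not tested.

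**Figure D3:**
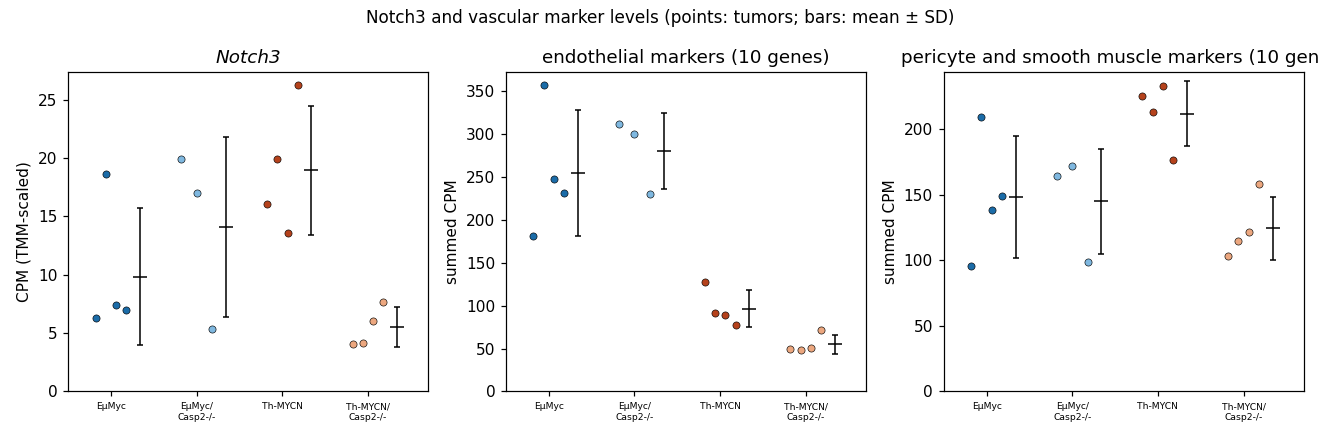
CPM of Notch3 (left) and summed CPM of 10 endothelial (middle) and 10 pericyte and smooth muscle markers (right) on linear vertical axes from 0, by group (horizontal axis). Points are tumors and bars are mean ± SD. All 3 measures are lower in every Th-MYCN/Casp2-/- tumor than in any Th-MYCN tumor, while endothelial markers are highest in lymphomas (181.9 to 357.2). Pecam1 alone averaged 124.1 CPM of the mean sum of 266.0 in lymphomas and 16.5 of 75.9 in neuroblastomas. All 10 endothelial log2 fold changes were above 0 in EμMyc against Th-MYCN tumors.

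For Notch2 the neuroblastoma genotypes differed by a log2 fold change of -1.18 ± 0.364 (QLF FDR 0.370, LRT FDR 0.111), with overlapping groups, and without MYCN391, its highest tumor, the value was -0.84. Dll1 had -0.97 (95% interval -2.01 to 0.0715) and Dll4 -0.81 (-1.76 to 0.145). Jag1 had 0.13 (-0.526 to 0.795), Jag2 -0.16 (-0.997 to 0.672), Hes1 0.10 (-0.823 to 1.03), Notch1 0.20 (-0.456 to 0.858) and Notch4 -0.31 (-1.05 to 0.433). Dll3 had -0.25 (-1.87 to 1.38). None of these passed a test, and several intervals reach past 1 in size.

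In lymphomas 0 of the 10 genes were called between EμMyc/Casp2-/- and EμMyc tumors by QLF (0.141% of all genes), by LRT (1.44%) or by DESeq2 (1.38%), and 0 had an unadjusted QLF p under 0.05 (8.53% of all genes). All 10 genes overlapped between genotypes, where 3.7% of all genes did not. The log2 fold change was 0.51 (95% interval -0.502 to 1.53) for Notch3, 0.28 (-0.532 to 1.09) for Notch4, -0.26 (-0.965 to 0.437) for Notch1, -0.15 (-0.962 to 0.662) for Notch2 and -0.43 (-1.38 to 0.516) for Hes1. Among the ligands, Dll3 had a value of -1.77, the largest in size of the 10 genes (95% interval -3.90 to 0.369, QLF FDR 0.664), from 15 or fewer reads in any lymphoma. Jag1 had 0.23 (-0.512 to 0.965), Dll4 -0.14 (-1.19 to 0.898), Jag2 -0.12 (-1.10 to 0.854) and Dll1 -0.03 (-1.22 to 1.17). No gene passed a test, and most of these intervals reach past 1 in size. T-cell markers had all 10 log2 fold changes above 0 between these genotypes, with a median of 3.7. QLF called 0 of the 10 and LRT 5, and 9 had an unadjusted QLF p under 0.05. Their summed CPM was 1625, 321.4 and 205.2 in EμMyc/Casp2-/- and 103.4 to 218.2 in EμMyc tumors, so the groups overlapped. Without EuMycC2ko215 the median was 1.17, with all 10 still above 0, QLF calling 0 and LRT 1. Without EuMycC2ko245 QLF called 6. EuMycC2ko215, the tumor highest in T-cell markers, was also the lymphoma highest in 8 macrophage markers (summed CPM 1576, against 290.7 to 1092 in the others). Its endothelial sum (312.0) was below only that of EuMyc743b (357.2). Of the lymphomas EuMycC2ko215 was highest in Notch3 (19.9 CPM) and Notch4 (14.3) and lowest in Notch2 (65.0). Without it the log2 fold change was 0.20 for Notch3, -0.09 for Notch4, -0.45 for Notch1, 0.13 for Notch2 and -0.12 for Hes1. Leaving out each lymphoma in turn put Notch3 between 0.20 and 1.02. The part of T cells, macrophages or vessels in these values was not tested.

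**Figure D4:**
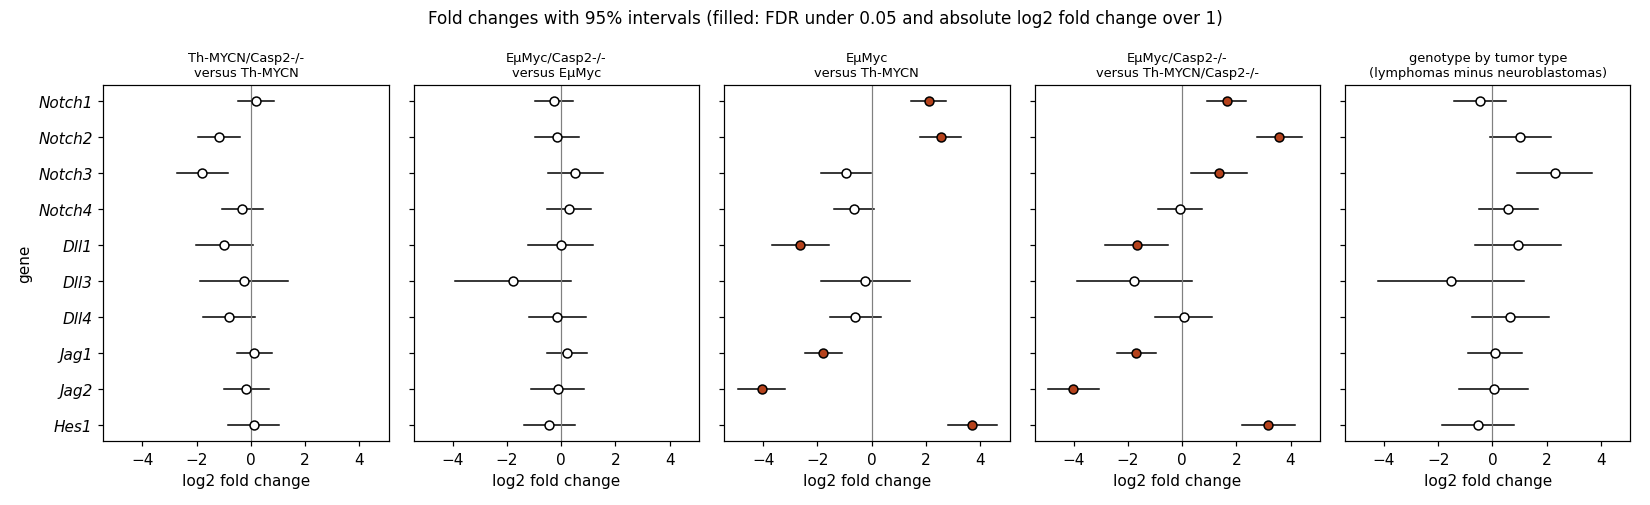
Log2 fold change (horizontal axis) of each gene (vertical axis) in 5 comparisons, with 95% intervals as lines. Filled points passed QLF at FDR under 0.05 with an absolute log2 fold change over 1. Filled points are in the panels of EμMyc against Th-MYCN (6) and of EμMyc/Casp2-/- against Th-MYCN/Casp2-/- tumors (7), and the Notch3 interval in neuroblastomas (-2.73 to -0.850) lies below 0 without a call.

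Between tumor types the Notch3 values had opposite signs in the 2 comparisons, of which QLF called 1. In lymphomas it measured 6.30, 18.6, 7.40 and 7.01 CPM in EμMyc and 19.9, 17.0 and 5.35 in EμMyc/Casp2-/- tumors. Its log2 fold change was -0.94 ± 0.439 between EμMyc and Th-MYCN tumors (QLF FDR 0.0769, DESeq2 FDR 0.0425), and -1.45 (FDR 0.00916) without EuMyc743b, the high EμMyc tumor. Between the Casp2-/- tumor types it was 1.36 ± 0.479 (QLF FDR 0.0232), with overlapping groups. That call was lost without EuMycC2ko215 (1.10, FDR 0.0807), EuMycC2ko239 (1.26, FDR 0.0628), MYCNC2ko118 (1.23, FDR 0.0615) or MYCNC2ko144 (1.23, FDR 0.0622). Without EuMycC2ko215, where Dll1 lost its call as well, 5 of the 10 genes were called.

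An interaction term tested whether the genotype difference was unequal in lymphomas and neuroblastomas. For Notch3 it was 2.30 ± 0.650 on the log2 scale (QLF FDR 0.335, LRT FDR 0.0693, DESeq2 FDR 0.0454), and 1.99 (QLF FDR 0.617) without EuMycC2ko215. QLF and LRT called 0 of the 10 genes in the interaction (0.0538% and 0.914% of all genes), DESeq2 called 1 (0.863% of its genes), and 1 had an unadjusted QLF p under 0.05 (7.57%). For the other 9 genes the 95% interval of the interaction included 0.

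Of 62 other pathway genes in 8 lists, 59 were tested. Between tumor types QLF called 11 higher and 23 lower in EμMyc than in Th-MYCN tumors, and 10 higher and 22 lower between the Casp2-/- tumor types. Over all genes QLF called 18.3% higher and 27.8% lower in the former comparison and 19.7% and 26.6% in the latter, and the counts per list below are read against these shares. The share called higher is close to that over all genes in both comparisons. The glycosyltransferases that modify Notch receptors gave 2 of 5 higher and 0 lower in both comparisons. Lfng measured 71.9 ± 29.1 CPM (SD, n = 4) in EμMyc and 4.99 ± 2.15 (n = 4) in Th-MYCN tumors (log2 fold change 3.85, QLF FDR 2.45e-07), and Mfng 105.6 ± 25.0 and 13.5 ± 4.59 (2.96, FDR 7.08e-05). These are 2 of the fringe enzymes, which add sugars that alter which ligands a receptor answers to. Rfng, another fringe gene, lay on the other side and was not called. It measured 43.5 ± 4.33 CPM in EμMyc and 67.7 ± 10.4 in Th-MYCN tumors, with ranges of 39.7 to 49.7 and 56.8 to 81.1.

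Of 10 proteases, 2 were higher and 2 lower in both comparisons. Adam10 and Adam17, which make the first cut after ligand binding, had log2 fold changes of 1.48 (QLF FDR 0.000461) and 1.24 (FDR 3.50e-05) in EμMyc against Th-MYCN tumors. Adam10 was not called between the Casp2-/- tumor types (0.86). Aph1b, a gamma-secretase subunit, had -1.92 (FDR 0.0228) and Furin, the convertase that processes Notch receptors, -1.04 (FDR 0.0152). In 8 refits that each left out 1 tumor, Aph1b lost its call in 2 and Furin in 3.

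Other targets split, with 2 of 8 higher and 4 lower in EμMyc tumors (1 and 4 between the Casp2-/- tumor types). Il2ra, the interleukin-2 receptor alpha chain, had a log2 fold change of 4.82 (QLF FDR 0.000415), with 5 reads in total over the Th-MYCN tumors. The other gene called higher, Hes5 (1.48), had overlapping groups. Hey2 and Heyl, which encode repressors related to HES1, had -3.92 (FDR 0.000329) and -2.54 (FDR 3.62e-05), and the cyclin gene Ccnd1 had -2.59 (FDR 1.81e-08). Hey2 held 11 reads in total over the EμMyc tumors. Hey1 had -2.34. The Hey genes thus lay on the other side from Hes1, with Heyl at 2.33 ± 0.913 CPM in EμMyc and 13.7 ± 3.88 in Th-MYCN tumors. In the transcription complex, 1 of 7 was higher and 1 lower, the coactivator genes Maml2 (1.66, overlapping groups) and Maml3 (-3.59, FDR 4.24e-05).

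Of 11 corepressors, 2 were higher and 3 lower. Tle3 (1.72, QLF FDR 0.00166) and the deacetylase gene Hdac1 (1.07, FDR 0.000233) were higher, and Tle1 (-1.78, FDR 0.00130), Tle5 (-1.67, FDR 0.00326) and Tle4 (-1.62, FDR 0.000762) were lower in EμMyc than in Th-MYCN tumors. Hdac1 lost its call in 2 of 8 refits that each left out 1 tumor. Of 11 ubiquitin ligase and endocytosis genes, 1 was higher, Dtx2 (1.72, FDR 6.51e-06), and 7 were lower, among them Neurl1a (-7.64, FDR 1.99e-06), which acts on ligands, and Numbl (-4.34, FDR 1.41e-07), of the Numb family of Notch antagonists. Neurl1a held 13 reads in total over the EμMyc tumors.

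All 3 atypical ligands (Dner, Dlk1 and Dlk2) were called lower in EμMyc tumors. Dner had a log2 fold change of -8.00 (QLF FDR 1.11e-06), from 3 reads in total over the EμMyc tumors. The size of such a change is imprecise, and it was -10.9 without EuMyc614. Dlk1 had -6.93 (FDR 3.41e-05), at 15.4 ± 18.0 CPM in EμMyc, 1.55 ± 0.735 in EμMyc/Casp2-/-, 1883 ± 736.3 in Th-MYCN and 477.7 ± 310.5 in Th-MYCN/Casp2-/- tumors, and its difference between the neuroblastoma genotypes was -1.98 ± 0.792 (FDR 0.643). Among proneural factors, Hes6 was higher (1.59, FDR 1.06e-05), and Neurod1 (-9.99, FDR 6.78e-08) and Insm1 (-3.38, FDR 0.0112) were lower. Neurod1 held 1 read in total over the EμMyc tumors.

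**Figure D5:**
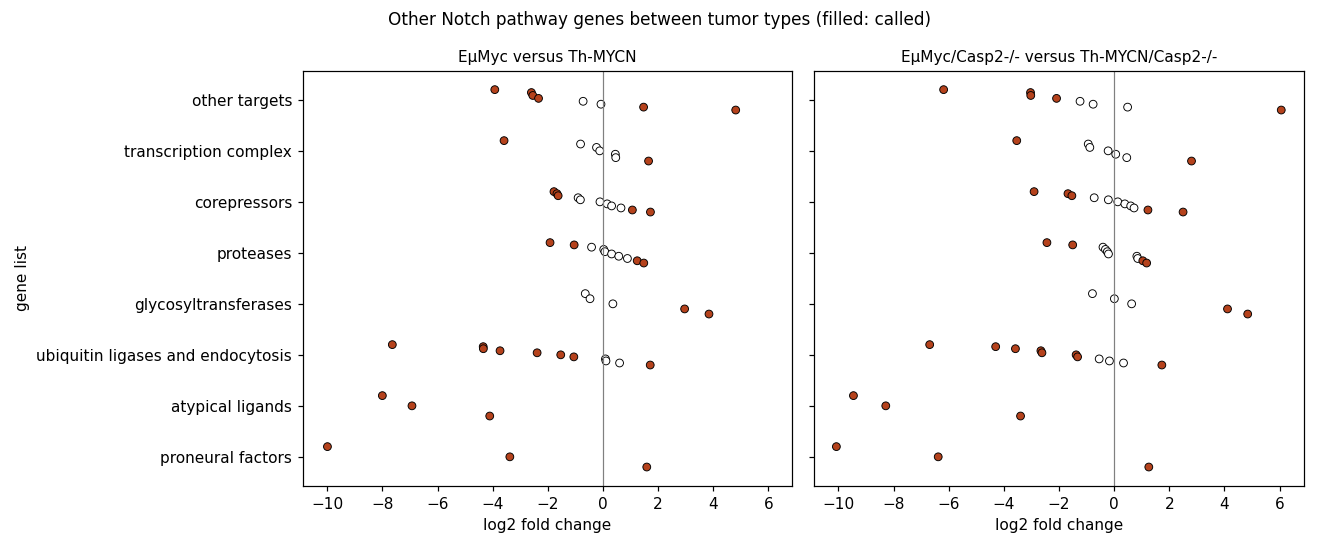
Log2 fold change (horizontal axis) of the 58 other pathway genes with a finite standard error, 1 point per gene, by list (vertical axis), in both comparisons of tumor types. Filled points passed QLF at FDR under 0.05 with an absolute log2 fold change over 1. The atypical ligands are all lower in lymphomas and Lfng and Mfng higher.

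Between genotypes QLF called 0 of the 59 in either tumor type or in the interaction, with 7, 6 and 4 at an unadjusted p under 0.05 in neuroblastomas, lymphomas and the interaction. Over all genes these shares were 6.77%, 8.53% and 7.57%. The counts in lymphomas and the interaction lie near the background. The count in neuroblastomas lies above it, a difference that was not tested, and 3 of its 7 genes were among the 5 glycosyltransferases. In lymphomas LRT called Dtx3 higher in EμMyc/Casp2-/- tumors. Dtx3, a Deltex family ubiquitin ligase gene, measured 8.05, 13.8, 10.6 and 17.3 CPM in EμMyc and 90.2, 35.9 and 19.2 in EμMyc/Casp2-/- tumors (log2 fold change 1.95 ± 0.398, QLF FDR 0.0842, LRT FDR 0.000643). The log2 fold change was 1.17 (QLF FDR 0.346) without EuMycC2ko215. Without EuMycC2ko245 it was 2.33 and passed QLF (FDR 0.00582).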

How the data were processed

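Poly(A) RNA of frozen tumors was read on an Illumina HiSeq instrument (single-end). By the study's methods and labels, STAR was used for alignment to mm10/GRCm38 after a FastQC check, and the authors deposited STAR's raw counts of reads per gene, without normalization. The annotation release is not given in the sources used here. The count column for the second strand was used. It and the first strand column held 49.6 to 50.2% and 51.7 to 52.1% of the reads of either strand, so strands look unseparated and overlapping or antisense genes cannot be told apart. Rows that name no gene (4 per file) equaled 66.4 to 71.8% of the reads in this column and were left out. That share also holds reads on genes of the other strand, so it is not the share of reads off genes. Counted on either strand, libraries held 9845761 to 35192127 reads on genes.

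The tests used edgeR 4.0.16 under R 4.3.3, with DESeq2 1.42.0 as an alternative. Testing was limited to the 14880 of 23329 genes that exceeded 1 CPM in 3 or more tumors. A single model with 4 group means, TMM scaling and all 15 tumors was fitted, and standard errors and 95% intervals come from its quasi-likelihood fit. Scripts were tested on simulated data. Pairs of tumors of 1 group differed by more than counting noise (chi-square per degree of freedom 16.2 to 76 over 21 pairs), so none is a copy. Exon lengths and positions come from GENCODE annotation of GRCm38 by symbol, and promoters from RefSeq, which held 9 of the 10 genes. Hes1 had no entry. P-values measure the spread between tumors of different mice.

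The Notch genes, lists and tests were chosen with earlier results of these data known. All 10 members are named. Other pathway genes are named where QLF or LRT called them between genotypes or in the interaction, or, between EμMyc and Th-MYCN tumors, as up to 3 per list and direction with the largest change among called genes whose groups do not overlap. Alternatives were LRT, DESeq2, median-ratio size factors, no low-count filter, reads of either strand, only the tumors compared, sex as a covariate (from the study's sample sheet), no fold threshold and leaving out each tumor. The same alternatives for the other pathway genes, and marker lists between lymphoma genotypes without single tumors, were added after seeing the data. Results of some pathway genes that this rule names are not reported here. Hes5, Hey1, Maml2, Dlk2 and Rfng were named after their values were seen. A further EμMyc/Casp2-/- tumor is not analysed here.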

Additional observations from a re-analysis of the deposited data

Results flagged for a closer look

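In 2 of 30 groups of 4 tumors screened, 1 tumor lay far from the others, where chance alone gives about 1 in 20. Notch3 measured 18.6 CPM in EuMyc743b and 6.30 to 7.40 in the other EμMyc tumors (value 18.65). The same tumor had the highest Notch1 value of all tumors, 77.3 CPM, and the highest endothelial marker sum, 357.2. Jag2 measured 16.8 CPM in EuMyc614 and 5.56 to 6.30 in the other EμMyc tumors.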

How the results depend on the processing

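No paired analysis was possible because the labels give mouse numbers and no replicate numbers shared between groups. Of 838 refitted log2 fold changes of the members, 786 kept their direction and their side of the threshold. In neuroblastomas LRT and DESeq2 each called 1 member where QLF called 0, and DESeq2 called 1 in the interaction where QLF called 0, Notch3 each time; the cause was not tested. Leaving out each tumor gave 0 members called in neuroblastomas, in lymphomas and in the interaction, 6 to 7 between EμMyc and Th-MYCN tumors, and 5 to 7 between the Casp2-/- tumor types. Values of uncalled genes near 0 changed sign. For Dll1 in lymphomas (log2 fold change -0.03) this gave 0.0086 with DESeq2, 2.16e-05 with median-ratio size factors and 0.11 with sex as a covariate. With sex, Notch2 in lymphomas became 0.057 and Dll4 between the Casp2-/- tumor types -0.11. In the interaction Jag1 became -0.0044 with reads of either strand and Jag2 -0.0024 without the low-count filter. Without each tumor in turn, log2 fold changes in lymphomas that changed sign ran for Dll1 from -0.807 to 0.259, Dll4 from -0.43 to 0.112, Jag2 from -0.947 to 0.443, Notch1 from -0.447 to 0.0695, Notch2 from -0.603 to 0.127 and Notch4 from -0.0867 to 0.577. Without each tumor in turn, log2 fold changes between EμMyc and Th-MYCN tumors that changed sign ran for Dll3 from -0.557 to 0.364. Without each tumor in turn, log2 fold changes in neuroblastomas that changed sign ran for Dll3 from -0.566 to 0.355 and Hes1 from -0.113 to 0.324. Without each tumor in turn, log2 fold changes between the Casp2-/- tumor types that changed sign ran for Dll4 from -0.174 to 0.367 and Notch4 from -0.391 to 0.222. Without each tumor in turn, log2 fold changes in the interaction that changed sign ran for Jag1 from -0.14 to 0.403 and Jag2 from -0.786 to 0.604. Values of Dll3 rest on few reads, at most 34 in a tumor.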

Other observations

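As a description with no test, the gene whose log2 CPM followed each receptor best over the 8 neuroblastomas, of 13782 genes compared, was Tnip1 for Notch1 (Pearson r = 0.970), Pvrl4 for Notch2 (0.985), Heatr2 for Notch3 (0.980) and Pabpc1 for Notch4 (0.949). For the ligands it was Whrn for Dll1 (0.988), Chrna4 for Dll4 (0.953), Tdrd3 for Jag1 (0.954) and Gmeb1 for Jag2 (0.978), and for Hes1 it was Mfap1b (0.957). Over the 7 lymphomas, of 12763 genes, it was Kcna5 for Notch1 (0.979), 4931428F04Rik for Notch2 (0.988), Hoxd4 for Notch3 (0.986), Pvrl3 for Notch4 (0.991), Msx1 for Dll4 (0.999) and Ptpn1 for Hes1 (0.981). No gene was first for the same member in both tumor types. The tumors of each type share genotype groups and depth, and the best of so many genes over so few tumors has a high r.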
